A study of Mus musculus with 16 samples.

Results

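The Olig1-Olig2 locus of the mouse was described by its contact domains, the positions that few contacts cross, and its CTCF sites, in embryonic stem (ES) cells and neural progenitor cells (NPCs). The measurements are chromosome conformation capture carbon copy (5C) counts, in which ligation products between chosen HindIII fragments are amplified with alternating forward and reverse primers and sequenced. The locus covers chr16:90614613-91754612 in the mm9 build, a length of 1140 kb. All pairs of a forward and a reverse primer in the locus were taken, without pairs that have a fragment midpoint in 3 stretches of 16, 32 and 196 kb, which are not analysed here. This kept 10201 of 18768 pairs in the locus, out of 97243 such pairs within the 7 loci of the study. They join 101 forward and 101 reverse primers, and 72 of the 274 primers of the locus were dropped.

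Olig1 and Olig2 encode basic helix-loop-helix transcription factors that act in neural progenitors and in the oligodendrocyte lineage. Contacts along a chromosome are commonly organised into domains, stretches whose parts meet each other more often than they meet the neighbouring stretch. CTCF is a zinc-finger DNA-binding protein that is known to mark many domain borders, where it halts the extrusion of chromatin loops by cohesin, and pairs of CTCF sites often lie at the feet of loops.

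The 5C libraries came from 3 untreated groups of 2 libraries each. In the first, male V6.5 ES cells of a 129SvJae x C57BL/6 background were grown in 2i/LIF, a serum-free medium with leukemia inhibitory factor (LIF) and the kinase inhibitors CHIR99021 and PD0325901. The second held the same line in serum with LIF. ES cells were expanded on inactivated fibroblast feeders and then moved to gelatin, which removes feeder cells, so both ES groups are cultures of 1 line. The third group was NPCs from the whole brains of 129SvJae x C57BL/6 mice carrying Sox2-eGFP, taken on postnatal day 1. They were grown as neurospheres, plated as an adherent layer and fixed 1 day later. A CTCF ChIP-seq list of a single library was used for each of the same cell types and media. No expression data were used, so the cell types were not checked against marker genes.

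Of the kept pairs, 9999 had both fragments in the 16 kb windows used below, and their counts were 1081625 and 1222050 in the 2i/LIF libraries, 2242050 and 2083387 in the serum/LIF libraries, and 1522369 and 1641470 in the NPC libraries. Between 94.8% and 98.0% of these pairs had a count. The 2 libraries of a group differed by more than counting noise. Their counts per pair gave a chi-square of 8.24 to 11.8 for each degree of freedom, where counting noise alone gives about 1. Over all its primer pairs, the stretches left out included, the locus held 15.4% and 16.1% of all within-locus counts in 2i/LIF, 16.5% and 16.4% in serum/LIF, and 19.3% and 19.7% in NPCs, the highest share in NPCs. Of the NPC counts, 75.8% and 73.5% came from pairs under 50 kb apart, against 53.6% to 66.4% in the ES libraries.

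Insulation was scored at 51 positions, each an edge between adjacent 16 kb windows. The score is the log2 ratio of the counts that cross the position within 8 windows on each side to the count expected from the distance trend and from fragment factors common to all libraries. A low score means that few contacts cross. Replicate profiles followed each other with a Pearson r over positions of 0.905 in 2i/LIF, 0.977 in serum/LIF and 0.967 in NPCs, and libraries of different groups with 0.329 to 0.737. Neighbouring positions share counts, so these values are descriptions.

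The profile was steeper in NPCs than in ES cells. The SD of the score over the 51 positions was 0.53 and 0.45 in the NPC libraries, 0.27 and 0.26 in 2i/LIF, and 0.25 and 0.24 in serum/LIF. The lowest score of both NPC libraries, -1.18 and -1.13, lay at chr16:90726613, and the highest, 0.96 and 0.74, at chr16:91286613. In 2i/LIF the lowest scores, -0.71 and -0.67, lay at chr16:91078613 and chr16:91062613. In serum/LIF they were -0.67 at chr16:91686613 in the first library and -0.54 at chr16:91718613 in the second. The deepest point of the locus therefore differed between the groups. In the 6 other loci the SD ranged from 0.13 to 0.61 in NPC libraries and from 0.04 to 0.57 in ES libraries.

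**Figure D1:**
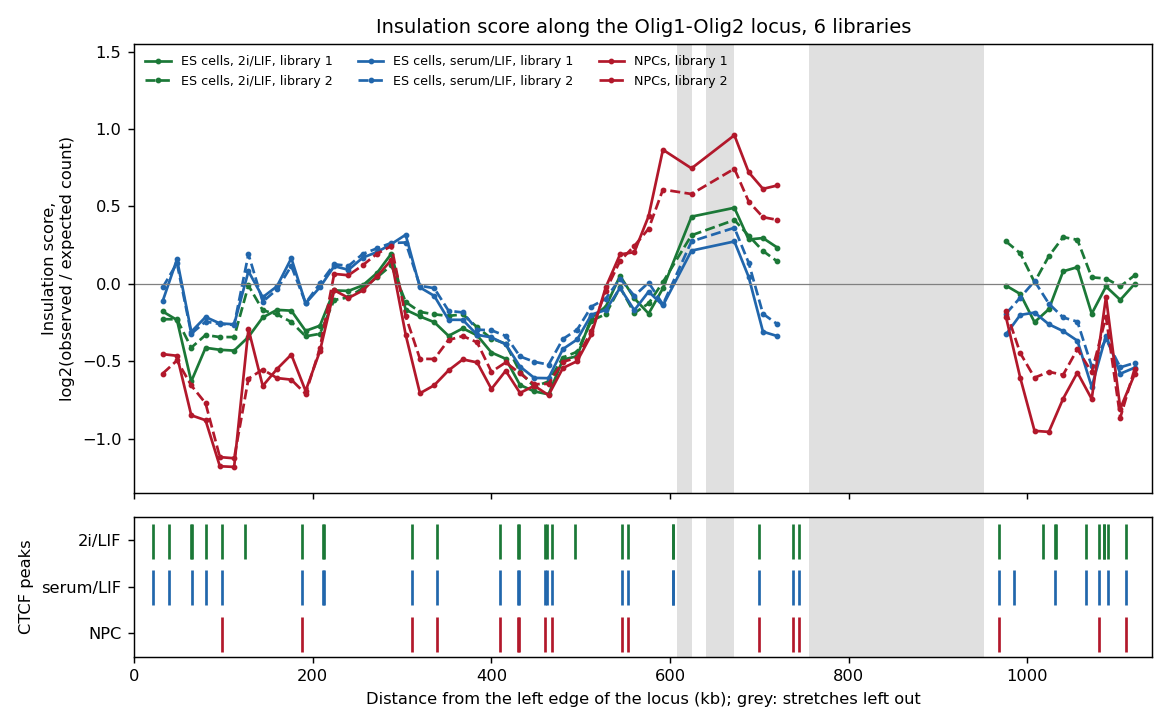
Upper panel: insulation score, log2(observed / expected count), by distance from the left edge of the locus in kb, with 1 line per library (solid for replicate 1, dashed for replicate 2). Lower panel: CTCF peaks of the 3 lists, and grey marks the stretches left out. The NPC libraries drop to -1.18 and -1.13 at 112 kb and climb to 0.96 and 0.74 at 672 kb, while all 6 libraries share a trough near 464 kb.

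A boundary was called where the mean score of the 6 libraries was lowest within 48 kb on both sides and at least 0.3 under the highest score within 80 kb on each side. The locus had 1 boundary under this rule, at chr16:90726613, with a mean score of -0.60 and a depth of 0.41. It splits the locus into a left domain of 112 kb (chr16:90614613-90726612) and a right domain of 1028 kb (chr16:90726613-91754612). Just outside the depth limit, the minimum at chr16:91078613 had the lowest mean score, -0.64, with a depth of 0.29. The minima at chr16:90806613 and chr16:91622613 were shallower, with depths of 0.22 and 0.16.

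The place of the single boundary rested on the NPC libraries. By the same rule in both libraries of a group, NPCs had boundaries at chr16:90726613 and at chr16:91638613 or the neighbouring chr16:91622613. ES cells in 2i/LIF had 1 at chr16:91078613 or the neighbouring chr16:91062613, and ES cells in serum/LIF had 1 at chr16:90678613. Without NPC replicate 2 the boundary of the mean profile moved to chr16:90678613. Without NPC replicate 1 it stayed and chr16:91078613 passed as well. With a depth of 0.2 chr16:90806613 and chr16:91078613 were added, and with a depth of 0.5 none was called. With a reach of 16 windows on each side, or with no fragment factors, a boundary was found at chr16:90678613 and none at chr16:90726613.

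Between NPCs and ES cells in 2i/LIF, contacts fell across the left boundary and at the right end of the locus and rose over a stretch on the right side of the locus centre. In the quasi-likelihood test of edgeR, adjusted by Benjamini and Hochberg's method over 416 positions of 7 loci, 29 of 51 positions changed, 8 higher and 21 lower in NPCs, where 62.0% of all positions changed, 22.1% higher and 39.9% lower. The 8 positions that rose formed 1 run, from chr16:91174613 to chr16:91334613. The positions that fell lay in 7 runs, of which the longest covered 7 positions from chr16:91590613 to chr16:91686613. The 2 NPC libraries lay outside the 2 ES libraries at each of the 29 positions.

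At the boundary chr16:90726613 the score was -0.43 and -0.34 in 2i/LIF, -0.26 and -0.27 in serum/LIF, and -1.18 and -1.13 in NPCs. The NPC libraries lay far below all 4 ES libraries. Crossing contacts fell by a log2 fold change of -0.77 (SE 0.076, adjusted p = 3.50e-05) against 2i/LIF. Against serum/LIF the change was -0.89 (SE 0.076, adjusted p = 2.57e-05). The position was picked from the mean score of these same libraries, so its p-values are no independent support.

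Apart from the boundary, the largest falls against 2i/LIF lay at the right end of the locus. At chr16:91654613 the score was 0.08 and 0.30 in 2i/LIF, -0.31 and -0.22 in serum/LIF, and -0.74 and -0.59 in NPCs. The 3 groups followed in that order without overlap, and NPCs were lower than 2i/LIF by a log2 fold change of -0.86 (SE 0.094, adjusted p = 5.72e-05). At chr16:91718613 the score was -0.10 and -0.02 in 2i/LIF, -0.58 and -0.54 in serum/LIF, and -0.81 and -0.86 in NPCs, and the log2 fold change was -0.78 (SE 0.081, adjusted p = 4.40e-05).

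The largest rise lay at chr16:91206613, where the score was -0.03 and 0.01 in 2i/LIF, -0.14 and -0.13 in serum/LIF, and 0.87 and 0.61 in NPCs. Both NPC libraries lay above the 4 ES libraries, which were near or below 0, with a log2 fold change of 0.75 against 2i/LIF (SE 0.087, adjusted p = 7.51e-05). At chr16:91286613, the highest point of the profile in NPCs and in 2i/LIF, the score was 0.49 and 0.41 in 2i/LIF, 0.27 and 0.36 in serum/LIF, and 0.96 and 0.74 in NPCs, a rise of 0.40 (SE 0.086, adjusted p = 0.00271). At chr16:91334613, which rests on 46 primer pairs, the rise was 0.34 (SE 0.091, adjusted p = 0.0103). It was lost without 2i/LIF replicate 2 or without NPC replicate 1 (highest adjusted p = 0.0577).

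**Figure D2:**
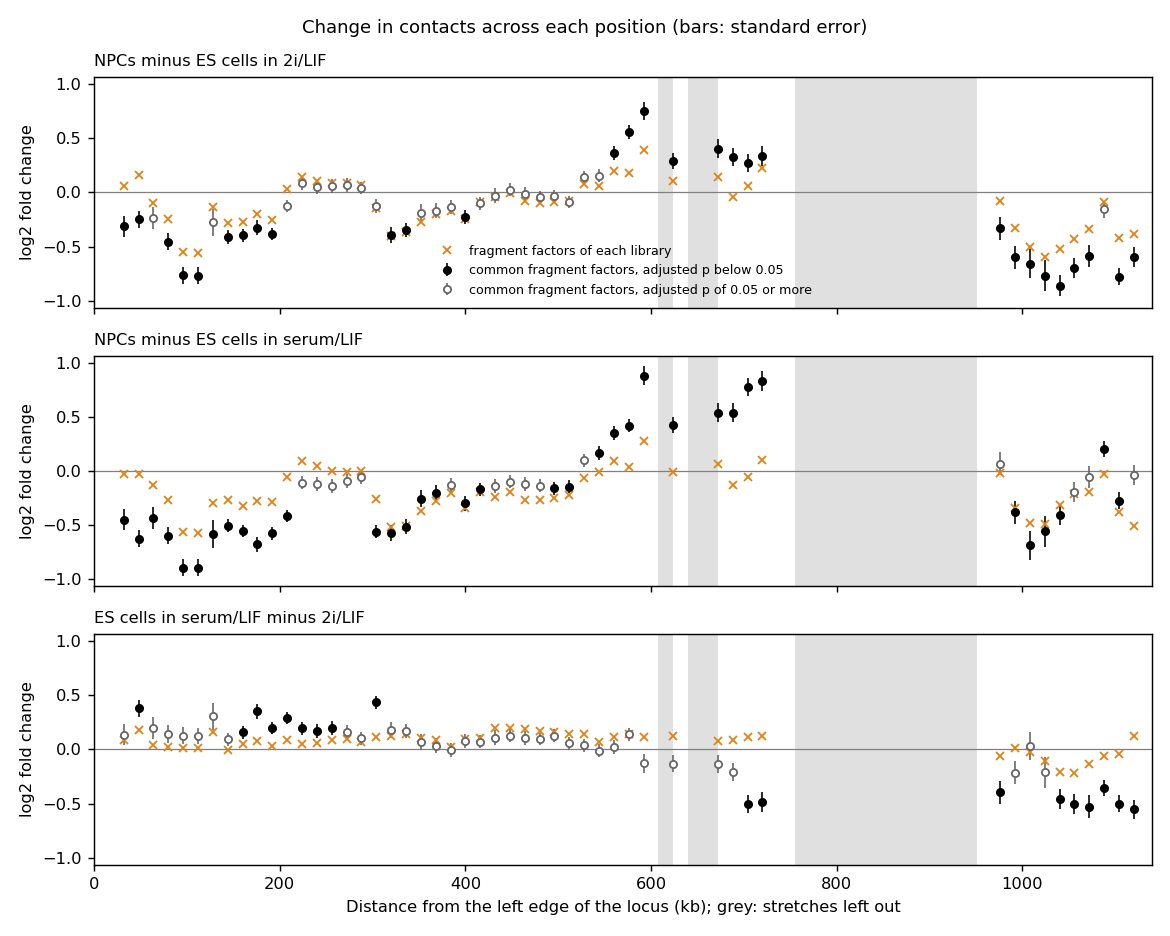
Log2 fold change of the contacts that cross each position, by distance from the left edge of the locus in kb, for the 3 comparisons, with bars of 1 standard error. Filled points passed the edgeR test and crosses give the same values with fragment factors of each library. In NPCs against 2i/LIF the boundary at 112 kb stands at -0.77 and the position at 592 kb at 0.75, and in serum/LIF against 2i/LIF most crosses lie nearer to 0 than the points.

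The direction of the many smaller changes depended on the scaling, and the part of the larger share of counts that the locus held in NPCs was not tested. With a distance trend common to all loci, 29 positions were higher and 4 lower in NPCs than in 2i/LIF, and with plain TMM scaling 31 and 5. With the locus median taken off each library, 25 were higher and 10 lower. Under all 6 scalings, 4 positions were called lower (chr16:90710613, chr16:90726613, chr16:91654613 and chr16:91718613) and 6 higher, all between chr16:91174613 and chr16:91334613. Both ends of this pattern, the boundary and the rise right of the centre, were therefore called at each scaling.

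The comparison of NPCs with ES cells in serum/LIF, which shares the NPC libraries, gave 36 changed positions of 51, 10 higher and 26 lower, where 69.7% of all positions changed, 23.1% higher and 46.6% lower. A run of 12 positions from chr16:90646613 to chr16:90822613 fell, on both sides of the boundary. A run of 9 positions from chr16:91158613 to chr16:91334613 rose, again across stretches left out. The scaling again moved the split, to 28 higher and 3 lower with a common distance trend and to 21 and 7 with plain TMM scaling. Under all 6 scalings, chr16:90710613 and chr16:90726613 were called lower and chr16:91206613 higher.

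The largest rises against serum/LIF were 0.88 at chr16:91206613 (SE 0.087, adjusted p = 6.03e-05), 0.83 at chr16:91334613 and 0.54 at chr16:91286613. At chr16:91334613 the score was -0.34 and -0.26 in serum/LIF and 0.64 and 0.41 in NPCs, on either side of 0. After the boundary, the largest falls were -0.69 at chr16:91622613 (SE 0.13, adjusted p = 0.00148) and -0.68 at chr16:90790613 (SE 0.069, adjusted p = 6.87e-05). At chr16:90790613 the score was 0.17 and 0.12 in serum/LIF and -0.46 and -0.62 in NPCs, with the 2i/LIF libraries between them at -0.17 and -0.25.

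Between the 2 ES media, 18 of 51 positions changed, 9 higher and 9 lower in serum/LIF, where 58.9% of all positions changed, 32.0% higher and 26.9% lower. The positions that rose lay left of the centre and those that fell lay on the right side of the locus. At chr16:90918613, the largest rise, the score was -0.17 and -0.12 in 2i/LIF, 0.32 and 0.27 in serum/LIF, and -0.33 and -0.21 in NPCs. Serum/LIF stood above both other groups, by 0.43 against 2i/LIF (SE 0.062, adjusted p = 5.13e-04). The next rises were 0.38 at chr16:90662613 and 0.35 at chr16:90790613.

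The largest fall between the media lay at chr16:91734613, near the right edge, where the score was -0.00 and 0.05 in 2i/LIF, -0.54 and -0.51 in serum/LIF, and -0.59 and -0.55 in NPCs. The serum/LIF libraries were close to the NPC libraries, and lower than 2i/LIF by -0.55 (SE 0.091, adjusted p = 9.64e-04). At chr16:91318613 the score was 0.30 and 0.21 in 2i/LIF, -0.31 and -0.19 in serum/LIF, and 0.61 and 0.43 in NPCs, a fall of -0.51 (SE 0.086, adjusted p = 0.00109) to the lowest of the 3 groups. At chr16:91686613 the fall was -0.53 (SE 0.10, adjusted p = 0.00224).

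At the boundary chr16:90726613 the log2 fold change between the media was 0.12 (SE 0.076, adjusted p = 0.185), and with plain TMM scaling it was 0.25 (adjusted p = 0.0281). At the trough chr16:91078613 it was 0.11 (SE 0.065, adjusted p = 0.180), and with fragment factors fitted for each library 0.19 (adjusted p = 0.0230).

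The 6 changes named between the media were not called when fragment factors were fitted for each library, with values of 0.11, 0.18 and 0.08 at the positions that rose and 0.12, -0.14 and 0.11 at those that fell. That setting takes off any change that all contacts of a fragment share. Under it the boundary was still lower in NPCs, by -0.56 against 2i/LIF and -0.57 against serum/LIF, and chr16:91206613 was higher by 0.39 and 0.28, all 4 past the threshold. Against serum/LIF it left 1 position higher and 31 lower.

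The trough at chr16:91078613 was present in all 6 libraries. Its score was -0.71 and -0.63 in 2i/LIF, -0.61 and -0.52 in serum/LIF, and -0.72 and -0.65 in NPCs. These values overlap between NPCs and 2i/LIF, with a log2 fold change of -0.01 (SE 0.065, adjusted p = 0.907), and the change against serum/LIF was -0.12 (SE 0.065, adjusted p = 0.132). With the locus median taken off, a common distance trend or plain TMM scaling, the same position was called higher in NPCs, by 0.30, 0.46 and 0.39 against 2i/LIF and by 0.21, 0.28 and 0.20 against serum/LIF. The shallow minimum at chr16:90806613 fell by -0.38 against 2i/LIF and by -0.58 against serum/LIF in the per-locus scaling, but against 2i/LIF it stood at 0.09 with a common trend and at 0.07 with plain TMM scaling, neither past the threshold. At chr16:91622613 NPCs were lower than 2i/LIF by -0.66 (SE 0.13, adjusted p = 0.00181), a call that did not hold under all 6 scalings. This minimum was picked from the mean score of the same libraries, so its p-value is no independent support. Its depth was 0.74 and 0.39 in NPCs, 0.24 and 0.26 in 2i/LIF, and -0.08 and -0.15 in serum/LIF.

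Summed over whole domains, contacts between the left and the right domain fell in NPCs. The log2 ratio of observed to expected counts over 1202 primer pairs was -0.33 and -0.19 in 2i/LIF, -0.13 and -0.11 in serum/LIF, and -0.89 and -0.96 in NPCs. The NPC libraries lay below the 4 ES libraries, which lay close together. The edge between the domains was chosen from the scores of these same libraries, so the tests here are no independent support for a fall. The log2 fold change was -0.66 against 2i/LIF (SE 0.065, adjusted p = 0.00293) and -0.80 against serum/LIF (SE 0.065, adjusted p = 0.00498), and serum/LIF against 2i/LIF gave 0.14 (SE 0.064, adjusted p = 0.147). Of the 3 blocks of the locus, 1, 3 and 1 were called in these comparisons (1 lower, then 2 lower and 1 higher, then 1 higher). The block higher against serum/LIF was the right domain, at 0.022, where expected counts are scaled to the locus total. Of the 61 blocks of all loci, 52.5%, 70.5% and 32.8% were called: 11.5%, 23.0% and 14.8% higher, and 41.0%, 47.5% and 18.0% lower.

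The fall between domains held its direction and its call with a common distance trend, at -0.31 and -0.45, with plain TMM scaling, at -0.49 and -0.83, and with fragment factors per library, at -0.53 and -0.58, against 2i/LIF and serum/LIF in turn. Contacts within the left domain, over 42 primer pairs, had a ratio of 0.14 and 0.13 in 2i/LIF, 0.45 and 0.39 in serum/LIF, and 0.26 and 0.22 in NPCs. Serum/LIF was higher than 2i/LIF by 0.29 (SE 0.042, adjusted p = 0.0169) and NPCs were lower than serum/LIF by -0.18 (SE 0.042, adjusted p = 0.0204). The second of these reversed to 0.18 with a common trend and to 0.92 with plain TMM scaling, and neither was called with fragment factors per library. The first was also lost without any 1 of the 4 ES libraries (highest adjusted p = 0.100), and the second without either serum/LIF library (highest adjusted p = 0.119). Within the right domain, which holds 8556 of the primer pairs, the ratio was between -0.01 and 0.02 in all 6 libraries, since the expected counts add up to the counts of the locus.

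With the boundary depth of 0.2, which cuts the locus into 4 domains, the left domain had fewer contacts in NPCs with each of the other 3 domains. These cuts were also chosen from the scores of the same libraries. Against 2i/LIF the log2 fold changes were -0.67 with the neighbouring domain, -0.66 with the next and -0.62 with the farthest, and against serum/LIF they were -0.86, -0.82 and -0.70, each past the threshold. With a distance trend common to all loci they were smaller: -0.19 (adjusted p = 0.122, not called), -0.25 and -0.49 against 2i/LIF, and -0.41, -0.55 and -0.33 against serum/LIF, these last 5 called. Contacts across the trough at chr16:91078613, between the third and the fourth domain, had a log2 fold change of 0.01 (SE 0.041, adjusted p = 0.831) against 2i/LIF and of -0.08 (SE 0.041, adjusted p = 0.137) against serum/LIF. With the common trend the first of these was a rise of 0.36 (adjusted p = 0.00801) and the second was 0.21 (adjusted p = 0.0686).

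Contacts were also tested for each pair of 16 kb windows, after a distance trend for each library and locus. Of 1567 window pairs of the locus, 287 changed between NPCs and 2i/LIF, 179 higher and 108 lower (18.3%, with 17% over all loci, 7.98% higher and 8.99% lower). Between NPCs and serum/LIF 542 changed, 305 higher and 237 lower (34.6%, with 28.6% over all loci, 14.8% higher and 13.8% lower). Between serum/LIF and 2i/LIF 301 changed, 149 higher and 152 lower (19.2%, with 20.7% over all loci, 9.38% higher and 11.4% lower). In 31.4% to 35.8% of the called pairs of a comparison, a single primer pair held more counts than all its others together.

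The calls against 2i/LIF had a clear layout along the locus. Its parts were cut at the boundary and the trough, which were chosen from the same libraries. Between the left domain and the middle part, from the boundary to chr16:91078612, 32 of 129 window pairs were lower in NPCs and 1 higher, with a median log2 fold change of -0.54. Between the left domain and the right part, from chr16:91078613 to chr16:91369999, 19 of 88 were lower and 0 higher, with a median of -0.75. Between the left domain and the right end, from chr16:91566001 on, 0 of 66 were lower and 1 higher, with a median of 0.01. Within the right part 36 of 119 were higher and 7 lower, with a median of 0.36, and between the right part and the right end 40 of 178 were higher and 2 lower, with a median of 0.42. Of the 2 counts of 0 in edgeR, the first was also 0 at an unadjusted p under 0.05 and by DESeq2, and the second was 2 and 0.

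Against serum/LIF the same blocks gave 55 lower and 2 higher of 129 (median -0.60), 28 lower and 0 higher of 88 (median -0.58), 4 lower and 4 higher of 66 (median 0.04), 10 lower and 56 higher of 119 (median 0.50), and 2 lower and 68 higher of 178 (median 0.50). The count of 0 was 1 at an unadjusted p under 0.05 and 1 by DESeq2. The 2 comparisons share the NPC libraries, and the limit given for pairs of the left domain with the right end holds for both. Between the ES media, the right end had 20 of 77 pairs lower and 4 higher within it (median -0.35), and its pairs with the right part had 19 lower and 3 higher of 178 (median -0.15).

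**Figure D3:**
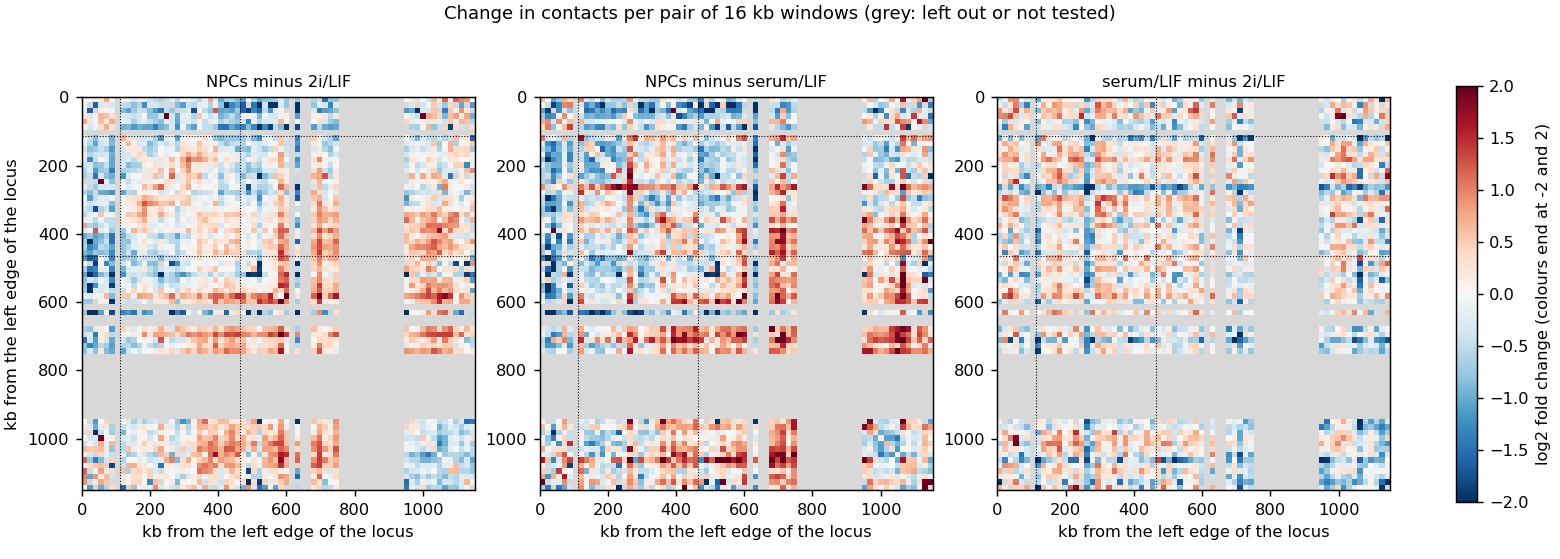
Log2 fold change of contacts for each pair of 16 kb windows in the 3 comparisons, with both axes in kb from the left edge of the locus and grey for pairs left out or not tested. Dotted lines mark the boundary at 112 kb and the trough at 464 kb. In both NPC panels the band between the first 112 kb and the middle is mostly blue (medians -0.54 and -0.60), and whole rows and columns stand out in all 3 panels.

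The largest rise against 2i/LIF joined the windows from chr16:91190613 and from chr16:91302613, 112 kb apart. Its counts were 382 and 513 in 2i/LIF, 1423 and 1643 in serum/LIF, and 2472 and 2189 in NPCs. Over the distance trend this is a log2 ratio of 0.25 and 0.28, of 0.82 and 0.95, and of 3.07 and 2.60, so serum/LIF lay between the other groups and nearer to 2i/LIF. The log2 fold change was 2.59 (SE 0.20, adjusted p = 3.82e-06). The next largest rises joined the window from chr16:91190613 with those from chr16:91350613 (1.65, SE 0.18, adjusted p = 3.68e-05) and chr16:91686613 (1.43, SE 0.29, adjusted p = 0.00336). The windows from chr16:91302613, chr16:91350613 and chr16:91686613 each held a CTCF site of all 3 lists, and the window from chr16:91190613 held no site of any list.

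The largest falls against 2i/LIF all had a foot in the left domain. The windows from chr16:90646613 and chr16:91078613 had counts of 79 and 141 in 2i/LIF, 169 and 224 in serum/LIF, and 29 and 22 in NPCs, and a log2 fold change of -1.60 (SE 0.38, adjusted p = 0.00929). The windows from chr16:90614613 and chr16:91318613 changed by -1.45, and those from chr16:90694613 and chr16:90822613 by -1.37 (SE 0.25, adjusted p = 0.00174). The first was lost without 2i/LIF replicate 2 or NPC replicate 2 (highest adjusted p = 0.0678), and the second without 2i/LIF replicate 1 or NPC replicate 2 (highest adjusted p = 0.0897).

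Against serum/LIF the largest rises were 2.69 for the windows from chr16:90998613 and chr16:91318613, 2.46 for chr16:91318613 and chr16:91670613, and 2.44 for chr16:90966613 and chr16:91670613. The first had counts of 156 and 214 in 2i/LIF, 141 and 66 in serum/LIF, and 213 and 298 in NPCs, so the serum/LIF libraries were the low ones although they were the deepest. No window of these rises held a CTCF site of all 3 lists, and that from chr16:91670613 held 1 site of both ES lists. The largest falls were -2.16 for chr16:90646613 and chr16:91110613, -1.88 for chr16:90902613 and chr16:91238613, and -1.87 for chr16:90630613 and chr16:91046613. The second of these was lost without serum/LIF replicate 1 or NPC replicate 2 (highest adjusted p = 0.0773).

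Between serum/LIF and 2i/LIF the largest rises were 1.37 for chr16:90950613 and chr16:91590613, 1.24 for chr16:90790613 and chr16:91638613, and 1.24 for chr16:90790613 and chr16:90902613. Of these, the first was lost without 2i/LIF replicate 2 or serum/LIF replicate 2 and the second without replicate 1 of either (highest adjusted p = 0.0987 and 0.0779). The third kept its call, with counts of 466 and 529 in 2i/LIF and 2309 and 2965 in serum/LIF. The largest falls were -1.89 for chr16:90726613 and chr16:91318613, -1.88 for chr16:90726613 and chr16:91350613, and -1.86 for chr16:90998613 and chr16:91318613, of which the first was lost without serum/LIF replicate 2 (adjusted p = 0.0509).

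Many changes ran along whole windows. Between NPCs and 2i/LIF, the window from chr16:91302613 was higher in 32 of its 52 tested pairs and lower in 0 (median 0.89), and the window from chr16:91190613 in 27 of 52 and 0 (median 0.76). The window from chr16:90694613, in the left domain, was lower in 19 of 50 (median -0.88). Between the ES media the window from chr16:91318613 was lower in 25 of 51 and higher in 0 (median -0.81), and the window from chr16:90870613 in 23 of 50 and 0. Of these 4 counts of 0 in edgeR, that of the window from chr16:91302613 was 1 at an unadjusted p under 0.05 and 1 by DESeq2, and the others were 0 both ways. With the medians of both its windows taken off, the rise between chr16:91190613 and chr16:91302613 went from 2.59 to 0.95 on the log2 scale. That between chr16:91318613 and chr16:91670613 against serum/LIF went from 2.46 to 0.16. The part of fragments and of specific contacts in such values was not tested.

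CTCF was mapped at 37 sites of the locus, after merging overlapping peaks of the 3 lists. The lists held 37 peaks here in 2i/LIF, 30 in serum/LIF and 17 in NPCs, and 56138, 50185 and 28860 in the genome. Of the sites, 17 (45.9%) were in all 3 lists, 12 (32.4%) in both ES lists, 7 in the 2i/LIF list alone and 1 in the serum/LIF list alone. Each NPC peak lay at a site of both ES lists. For sites in all 3 lists, the median of their highest fold enrichment was 30.1. It was 18.4 for sites of both ES lists and 9.76 for those of the 2i/LIF list alone. The highest fold was taken over more values at sites in more lists, which by itself raises it. The folds are the authors' values, and with 1 library per list there is no replicate check.

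NPC peaks were few in the left domain and at the right end, a difference that was not tested. The left domain held 6 sites, of which 6 were in the 2i/LIF list, 5 in the serum/LIF list and 1 in the NPC list. The middle part held 11 sites with 7 in the NPC list, the right part 9 with 6, and the right end 11 with 3. The single NPC peak of the left domain, at chr16:90712661-90712942, lies left of the boundary and had a fold of 16.9 in 2i/LIF, 10.7 in serum/LIF and 17.2 in NPCs. The genome-wide NPC list is also shorter, so a missing NPC peak is not a measured loss of CTCF.

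**Figure D4:**
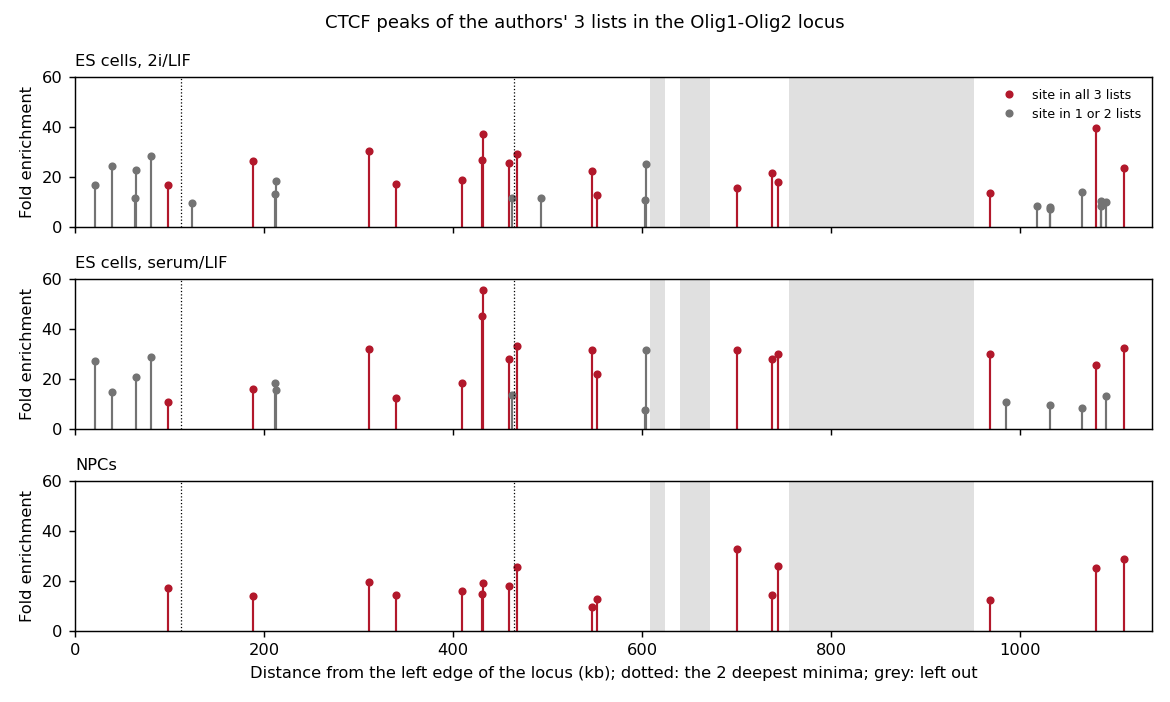
Fold enrichment of the authors' CTCF peaks by distance from the left edge of the locus in kb, in 1 panel per list, with sites of all 3 lists in red and other sites in grey. Dotted lines mark the boundary at 112 kb and the trough at 464 kb. The left 112 kb hold 6 sites in 2i/LIF and 1 in NPCs, and the highest peak, 55.6 in serum/LIF, stands just left of the trough.

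The highest fold of the locus belonged to the site at chr16:91045761-91046188, with 37.3 in 2i/LIF, 55.6 in serum/LIF and 19.3 in NPCs. A neighbouring site at chr16:91044587-91045050 had 27.0, 45.0 and 14.6. The site at chr16:91694916-91695384, at the right end, had 39.7, 25.5 and 25.1. The site at chr16:91081691-91082065, beside the central trough, had 29.5, 33.2 and 25.4. The site at chr16:91314370-91314814 had the highest NPC fold of the locus, 32.6, with 15.6 in 2i/LIF and 31.6 in serum/LIF. That site lies in the window from chr16:91302613, whose contacts were higher in NPCs.

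The central trough had more CTCF beside it than the boundary. Within 8 kb of chr16:91078613 lay 3 sites, the nearest 1.96 kb away, and 2 of the 3 were in the NPC list. Within 8 kb of the boundary at chr16:90726613 lay 0 sites, and within 16 kb lay 2. The nearer, at chr16:90738475-90738641 and 11.9 kb away, was in the 2i/LIF list alone with a fold of 9.76, and the other was the site of all 3 lists given above. The minimum at chr16:90806613 had a site of all 3 lists 4.24 kb away, and that at chr16:91622613 a 2i/LIF site 9.99 kb away. Of all 51 positions, 37 (72.5%) had a site within 16 kb. Their median score over the 6 libraries was -0.28, against 0.04 for the other positions, and for sites of all 3 lists it was -0.36 with a site and -0.20 without. Within 8 kb these medians lay closer, at -0.30 with a site and -0.20 without, and at -0.28 and -0.24 for sites of all 3 lists.

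Pairs of windows that both held a CTCF site of all 3 lists had higher counts than the distance trend in every library. Of the windows, 14 held such a site. Over 73 pairs of them at least 48 kb apart, the median log2 ratio of count to trend was 0.72 and 0.84 in 2i/LIF, 0.97 and 1.00 in serum/LIF, and 1.30 and 1.26 in NPCs. With 1 such window it lay between 0.31 and 0.58 over 521 pairs, and with none between -0.22 and -0.09 over 837 pairs. This trend takes no account of the number of primer pairs or of fragment factors. Their part in the differences between these kinds of pairs was not tested. The order of the groups was the same in both libraries of each for the 73 pairs, with NPCs the highest.

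Of these 73 pairs, 26 were higher and 1 lower in NPCs than in 2i/LIF (median log2 fold change 0.41), and 28 were higher and 5 lower than in serum/LIF (median 0.39). Over the 824 tested pairs with no such window, 51 were higher and 59 lower against 2i/LIF (median -0.10), and 120 higher and 124 lower against serum/LIF (median -0.07). Part of the pairs of 2 such windows lay where the calls of other pairs were also mostly rises. Right of chr16:91078613, 11 of 20 were higher than in 2i/LIF in edgeR and 0 lower (1 at an unadjusted p under 0.05 and 1 by DESeq2), beside 58 higher and 14 lower of 285 other pairs there. Elsewhere, with neither window in the left domain, 15 of 53 were higher and 1 lower, beside 69 higher and 30 lower of 767 other pairs (medians 0.34 and 0.05). Against serum/LIF the pairs elsewhere gave 14 higher and 5 lower of 53 with a median of 0.06, beside 119 and 98 of 767 with a median of 0.01, and right of chr16:91078613 the medians were 0.90 and 0.43. The windows with the ES lists' sites alone gave 2 higher and 5 lower of 38 pairs against 2i/LIF, and 6 higher and 5 lower against serum/LIF.

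**Figure D5:**
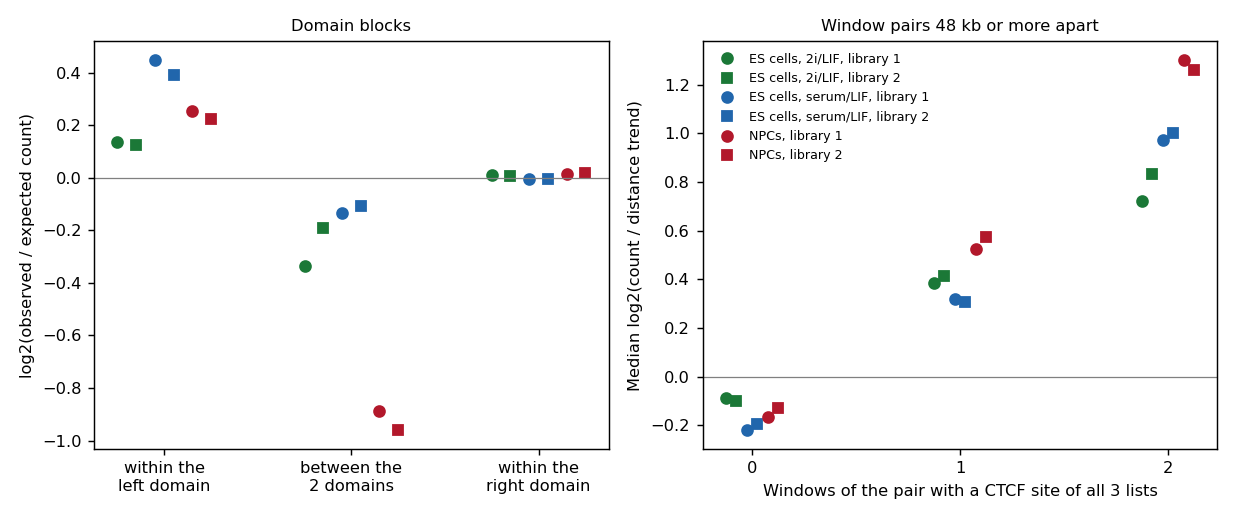
Left: log2 ratio of observed to expected counts within and between the 2 domains, with 1 point per library. Right: median log2 ratio of count to distance trend over window pairs at least 48 kb apart, by the number of their windows with a CTCF site of all 3 lists. Between the domains the NPC libraries stand at -0.89 and -0.96 below all ES libraries, and with 2 CTCF windows they stand at 1.30 and 1.26 above them.

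The authors' classified table lists 873 looping pixels or background pixels of 4 kb bins in the locus, of which 380 touch the stretches left out. The other 493 include 282 looping pixels. Of these, 98 were classed as constitutive, 50 as shared by NPCs and 2i/LIF, 44 as specific to 2i/LIF, 34 as specific to NPCs, 30 as specific to serum/LIF (the table's ES only), 21 as shared by serum/LIF and NPCs, and 5 as shared by the ES media. The classes were made from these libraries, so the scores of a class describe it and test nothing.

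The share of pixels that span the left boundary varied between the classes, as it did for the central trough. The boundary lay between the 2 bins of 25 of the 44 pixels specific to 2i/LIF, of 21 of the 50 shared by NPCs and 2i/LIF, of 12 of the 98 constitutive ones, of 4 of the 34 specific to NPCs, of 3 of the 30 specific to serum/LIF, of 1 of the 21 shared by serum/LIF and NPCs and of 0 of the 5 shared by the ES media, beside 29 of the 211 background pixels. The trough at chr16:91078613 lay between the bins of 24 of the 44 pixels specific to 2i/LIF and of 37 of the 50 shared by NPCs and 2i/LIF. It did so for 37 of the 98 constitutive pixels, 7 of the 34 NPC pixels and 4 of the 30 serum/LIF pixels. For pixels shared by serum/LIF and NPCs it was 5 of 21, by the ES media 1 of 5, and for background pixels 49 of 211. Median distances were 410, 474, 118, 344, 280, 264, 36 and 88 kb for these classes in turn. The part of distance in these shares was not tested. A CTCF site of any list lay in at least 1 bin of 15 of the 21 pixels shared by serum/LIF and NPCs (71.4%), of 13 of the 34 NPC pixels (38.2%), of 33 of the 98 constitutive pixels (33.7%) and of 5 of the 44 pixels specific to 2i/LIF (11.4%). Among the 211 background pixels it was 59 (28.0%). Pixels of a cluster share bins and are not independent. Of the 25 pixels specific to 2i/LIF that span the boundary, 16 were of 1 cluster with a foot at chr16:90714613-90726612. Among the 21 shared by NPCs and 2i/LIF, clusters of 5, 4 and 4 pixels had a foot at chr16:90718613-90726612.

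The largest 2i/LIF cluster, of 16 pixels, joined chr16:90714613-90726612, just left of the boundary, to chr16:91102613-91146612, with a mean deposited score of 74.3 and 61.3 in 2i/LIF, 4.51 and 2.92 in serum/LIF, and 4.78 and 9.52 in NPCs. The largest NPC cluster, of 8 pixels, joined chr16:91298613-91314612 to chr16:91678613-91690612, with 10.3 and 5.88 in 2i/LIF, 4.26 and 6.29 in serum/LIF, and 59.9 and 61.0 in NPCs. The largest constitutive cluster, of 27 pixels, joined chr16:90810613-90842612 to chr16:90910613-90938612, and scored between 34.0 and 51.1 in all 6 libraries. It had CTCF sites at both feet, but those at the left foot were in both ES lists and not in the NPC list. No source used here gives the scale of these scores.

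The 6 clusters of at least 4 pixels with a CTCF site of any list at both feet were looked up in the window pairs. These 6 were chosen after the clusters were seen. Of these, 3 were constitutive, and the log2 fold change of NPCs against 2i/LIF at the centre was 0.85 at that of 27 pixels, 0.51 (SE 0.23, adjusted p = 0.149) at that of 7 pixels and 0.80 (adjusted p = 0.00526) at that of 6 pixels. The clusters of 27 and 7 pixels, and a 6-pixel cluster shared by serum/LIF and NPCs, had a foot with no peak of the NPC list. At the constitutive cluster of 27 pixels the counts were 2583 and 2798 in 2i/LIF, 7532 and 7354 in serum/LIF, and 3942 and 5046 in NPCs. This is a log2 ratio to the trend of 2.75 and 2.49, of 3.01 and 2.91, and of 3.45 and 3.51, the highest in NPCs, with a log2 fold change of 0.85 against 2i/LIF (SE 0.17, adjusted p = 0.00302) and 0.52 against serum/LIF (SE 0.17, adjusted p = 0.0299).

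The other 3 clusters were classed from these libraries as high in NPCs and not in 2i/LIF, so their values are a description with no test. At the largest of those shared by serum/LIF and NPCs, 13 pixels from chr16:91074613-91090612 to chr16:91342613-91358612, the window pair at its centre had counts of 1576 and 2018 in 2i/LIF, 4954 and 6374 in serum/LIF, and 2008 and 2846 in NPCs. Over the distance trend this was 2.82 and 2.73, 3.16 and 3.48, and 3.40 and 3.66 on the log2 scale, high in all 6 libraries. It was higher in NPCs than in 2i/LIF by 0.75 and in serum/LIF than in 2i/LIF by 0.55, and NPCs against serum/LIF gave 0.20. At an NPC cluster of 4 pixels from chr16:91074613-91082612 to chr16:91306613-91314612, the window pair at its centre had counts of 282 and 411 in 2i/LIF, 790 and 958 in serum/LIF, and 822 and 580 in NPCs. It was higher in NPCs by 1.39 against 2i/LIF and by 1.16 against serum/LIF, of which 0.33 and -0.06 were left with the medians of both windows taken off.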

How the data were processed

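The deposited 5C files hold raw read counts per primer pair, made by the authors with Bowtie on mm9, per the submitters' processing notes; no source used here gives read filters. The untreated libraries use reads of earlier samples, per the labels. The deposited CTCF lists give MACS2 peaks of 1 library each, with a fold enrichment (a ratio) and a −log10 q per peak by the authors, and their names speak of downsampled reads. The authors' deposited interaction scores are per pixel of 4 kb bins. A further 55 per-sample columns and the siRNA libraries, which do not cover the locus, were not used.

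Of the kept pairs, 9999 had both fragments in 16 kb windows and 9800 entered the expected counts, from 40 distance classes per library and locus times fragment factors (30 iterations, fragments under a factor of 0.1 dropped). Positions needed 30 primer pairs and used 40 to 578. For window pairs the offset was a loess fit of the natural log of count + 0.5 against distance (span 0.5), with TMM factors and filterByExpr. All 6 libraries shared 1 fit per kind of feature in edgeR 4.0.16 (quasi-likelihood, group only), R 4.3.3, with Benjamini-Hochberg adjustment over all 7 loci and a threshold of 0.05. Standard errors were derived from the fold change and the F statistic. An exact permutation of 2 against 2 libraries cannot go below 0.333. Nothing says that replicates are separate cultures or animals, so p-values measure the spread between these samples. DESeq2 1.42.0 was an alternative tool, with other scalings, windows, reaches and left-out libraries. Scripts used Python 3.11.15, numpy 2.4.6 and pandas 2.3.3 and were tested on simulated data.

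Positions named were the boundaries and, per comparison, the 3 largest rises and falls past the threshold with libraries of the groups apart, at least 3 positions from one another. Window pairs named were the 3 largest rises and falls whose windows lie at least 48 kb apart, with a mean of 50 counts, 3 primer pairs and no primer pair above 50% of the counts. CTCF sites named were those nearest to a boundary and the 5 highest, with sites beside minima added. Other minima, windows, clusters and sites named were chosen after their values were seen. The members, lists and rules were chosen with earlier results of these data known.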

Additional observations from a re-analysis of the deposited data

How the results depend on the processing

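Blocks at a depth of 0.2, centring on the locus median and fragment factors per library were alternatives chosen after seeing the data. Counts of changed positions were 29, 36 and 18 of 51 for NPCs against 2i/LIF, NPCs against serum/LIF and serum/LIF against 2i/LIF. They became 62, 72 and 44 of 104 with 8 kb windows, 45 in the first and 32 in the third of 55 with a reach of 16 windows on each side, and 32 in the third with plain TMM scaling. Leaving out 1 library gave 23 to 32, 26 to 41 and 12 to 23, the lowest without 2i/LIF replicate 2, serum/LIF replicate 2 and serum/LIF replicate 1. A lone library is then assumed to vary like the other groups. DESeq2 gave 33, 36 and 23. Positions 91734613 and 91318613 of serum/LIF against 2i/LIF reversed to 0.12 and 0.11 with fragment factors per library (causes of this and other changes were not tested). Position 90806613 of NPCs against 2i/LIF reversed to 0.095 and 0.066 with a common trend and plain TMM scaling. Position 91078613 reversed with the locus median taken off, a common trend and plain TMM scaling to 0.30, 0.46 and 0.39 against 2i/LIF and to 0.21, 0.28 and 0.20 against serum/LIF.

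Called blocks were 1, 3 and 1 of 3. A boundary depth of 0.2 gave 5, 8 and 5 of 10, with a common trend as well 7, 6 and 3, and with plain TMM scaling as well 8, 9 and 3. At the depth of 0.3, NPCs against 2i/LIF gave 3 with a common trend, 3 with plain TMM scaling and 2 with fragment factors per library, and serum/LIF against 2i/LIF gave 0 with either of the last settings in edgeR (1 and 0 at an unadjusted p under 0.05, and DESeq2 gave 1). Leaving out 1 library gave 1 to 1, 1 to 3 and 0 to 1, the 0 without any 1 ES library (1 to 2 at an unadjusted p under 0.05). The left domain in NPCs against serum/LIF reversed to 0.18, 0.92 and 0.085 with a common trend, plain TMM scaling and fragment factors per library, and in serum/LIF against 2i/LIF to -0.0060 with the last. Boundaries were 1, with 3 at a depth of 0.2, 0 at 0.5, 3 with 64 kb on each side, 3 with no fragment factors, and 1 to 2 without 1 library.

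Changed window pairs were 287, 542 and 301, and 1102 and 694 in the last comparisons with 8 kb windows. Leaving out 1 library gave 114 to 244, 251 to 528 and 64 to 353, the lowest without 2i/LIF replicate 1, serum/LIF replicate 2 and serum/LIF replicate 2. The fall was over 1.5 times without either 2i/LIF library or NPC replicate 2 in the first, without either serum/LIF library in the second and without any 1 ES library in the third. CTCF sites were 37, with 28 at a −log10 q of at least 20 and 42 with a reciprocal overlap of at least 50%. The minima with a CTCF site went from 4 within 16 kb to 2 within 8 kb.

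Replicate numbers are shared between groups but no label says that they mark a shared culture or day. With the replicate number as a block, 37, 40 and 26 positions, 1, 2 and 1 blocks and 375, 616 and 367 window pairs were called. Deviations of libraries with the same number correlated with 0.107, 0.420 and 0.432 over the positions of the locus and with 0.03 to 0.59 over those of all loci.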
